A study of Mus musculus with 17 samples.

Results

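The 9 genes described here belong to glucocorticoid and corticotropin-releasing hormone (CRH) signaling: Nr3c1, Nr3c2, Crhr1, Fkbp5, Hsd11b1, Sgk1, Tsc22d3, Zbtb16 and Cdkn1a. They were chosen by symbol from a hand-made list, and all 9 were found among the 56953 genes of the count table and passed the filter on low counts that left 23062 genes to test. Glucocorticoids enter the brain from the blood, bind 2 nuclear receptors and change transcription of target genes. The mineralocorticoid receptor has the higher affinity and is largely occupied at resting hormone levels, whereas the glucocorticoid receptor is engaged at the daily peak and in stress. CRH starts the hormone cascade from the hypothalamus and also acts within the cortex, where interneurons release it.

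RNA was sequenced from the prefrontal cortex of 5 WT, 6 hTau and 6 CgA-KO/hTau mice, aged 8 months by the labels and Methods (a figure legend of the study gives 9 months of age for the RNA-seq cortices). WT mice carried neither change. The hTau mice are the PS19 line, which expresses human Tau of the 1N4R isoform with the P301S mutation from the Prnp promoter, which is active in many cell types. CgA-KO/hTau mice carry the same transgene and lack Chga, the gene of the secretory granule protein Chromogranin A (CgA), in the whole body from conception, so that brain and adrenal medulla were both without it. All were on the B6C3F1/J background. Each genotype held 3 males and 2 to 3 females, with no sex given for a single library. The study names only these genotypes for its RNA sequencing, so CgA-KO mice without the transgene are not among the libraries.

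Library totals ran from 8838334 to 227651681 deposited counts, with WT replicate 4 the shallowest, and about 3 deposited counts stood for 1 sequenced fragment. Values are given as CPM, the counts normalised to the TMM-scaled size of each library. Chga was at 0 in all 6 CgA-KO/hTau libraries, where a count of 0 allows at most 0.260 CPM, while the WT mean was 163 ± 11.9 CPM (SD, n = 5) and the hTau mean 168 ± 6.68 CPM (SD, n = 6). The Y-linked gene Ddx3y was at 49.8 to 76.8 CPM in replicates 1 to 3 of every genotype and at most 0.0582 CPM in all others. This split has the numbers of males and females that the study states. Replicates 1 to 3 and replicates 4 to 6 thus appear to differ in sex. Means of Prnp, whose promoter drives the transgene, were 833 ± 71.0 CPM in WT, 2119 ± 174 CPM in hTau and 1561 ± 321 CPM in CgA-KO/hTau (SD). CgA-KO/hTau replicates 1 to 3 held 1236 to 1348 CPM of Prnp and replicates 4 to 6 held 1676 to 2078.5 CPM, against 1974 to 2368 CPM in hTau. The part of transgene level in the differences between CgA-KO/hTau and hTau was not tested. For each pair of libraries of a genotype, the spread of log2 count ratios over 3761 well-covered genes was measured. The measure was the median absolute deviation around the median ratio, scaled to match an SD. It was 0.0523 to 0.0607 among hTau replicates 4, 5 and 6 and 0.0980 for CgA-KO/hTau replicates 1 and 3. All other pairs within a genotype were at 0.146 or more. WT replicate 4 stood apart, at 0.453 to 0.505 from each other WT library, while those were at 0.191 to 0.242 among themselves. Its Mapt was at 199 CPM, against 606 to 740 CPM in the other WT libraries. The libraries also differed in marker genes of neighbouring tissue. A list of 15 striatal neuron markers summed to 1145 to 3280 CPM in WT, to 165 to 221 CPM in hTau and to 200 to 227 CPM in CgA-KO/hTau replicates 4 to 6, but to 435 to 1840 CPM in CgA-KO/hTau replicates 1 to 3. Isl1, one of these markers, had no count in any hTau library, and the other 14 were detected in each genotype. The cortical excitatory neuron list, which bears on the labelled tissue, summed to 3710 to 5968 CPM in WT (median 4227) and to 5650 to 6908 CPM in hTau (median 6321). In CgA-KO/hTau it summed to 4810 to 6532 CPM (median 5664). The part of this list in the differences between genotypes was not tested.

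Members differed in how abundant their transcripts were. On the scale of CPM per kb of exon, which allows levels to be compared between genes, Nr3c1 was highest in each genotype, at 19.8 ± 1.79 in WT, 25.9 ± 1.02 in hTau and 24.6 ± 5.28 in CgA-KO/hTau (SD), with no library overlapping the next gene in order. Next in hTau was Zbtb16 at 16.1 ± 0.858 CPM per kb, apart from Sgk1 below it. In WT and CgA-KO/hTau the second gene was Sgk1, at 10.9 ± 1.24 and 11.7 ± 3.75 CPM per kb, and its libraries overlapped those of the gene below. Hsd11b1, Fkbp5 and Cdkn1a took the 3 lowest places in every genotype, with means of 1.18 to 4.36 CPM per kb.

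**Figure D1:**
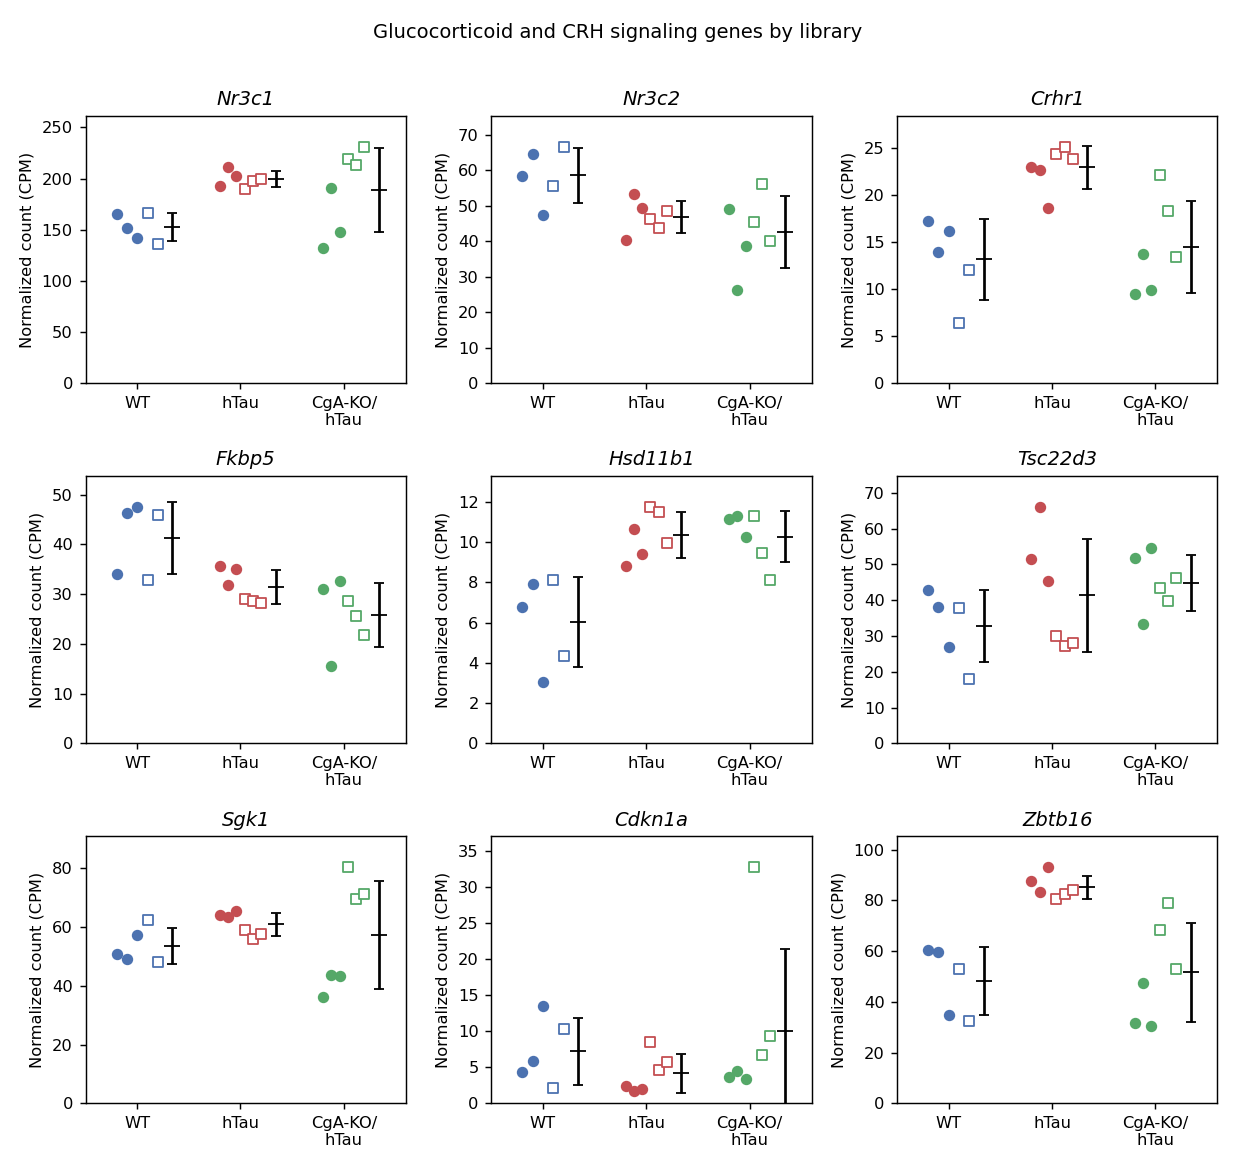
Normalized count (CPM, vertical axis from 0) of each of the 9 genes in every library by genotype; filled circles are replicates 1 to 3, open squares replicates 4 to 6, and bars give the mean ± SD (n = 5 WT, 6 hTau, 6 CgA-KO/hTau; the lower bar of Cdkn1a in CgA-KO/hTau runs below the axis). Zbtb16 in WT and CgA-KO/hTau lies below every hTau library, Hsd11b1 is low in WT alone, and Sgk1 in CgA-KO/hTau splits between replicates 1 to 3 and 4 to 6.

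Of the 9 genes, 2 passed an FDR of 0.05 between WT and hTau (Hsd11b1 and Zbtb16, both lower in WT), against 5.90% of all genes tested. Between CgA-KO/hTau and hTau 1 of 9 passed (Zbtb16, lower in CgA-KO/hTau), against 9.72% of all genes. Between CgA-KO/hTau and WT 2 of 9 passed (Hsd11b1, higher, and Fkbp5, lower in CgA-KO/hTau), against 6.46%. The calls are from the quasi-likelihood test of edgeR, adjusted by Benjamini-Hochberg over all genes. With the closest libraries named above averaged, edgeR called 0, 0 and 1 members. At the threshold of the study's Methods, an unadjusted p under 0.01 with a log2 fold change beyond 0.5, 3, 2 and 2 members passed, against 7.39%, 9.73% and 7.75% of all genes. Median log2 fold changes over the members were -0.34, -0.09 and 0.12 in the same order, beside -0.01, 0.03 and 0.01 over all genes. The comparisons with hTau share the same 6 hTau libraries.

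**Figure D2:**
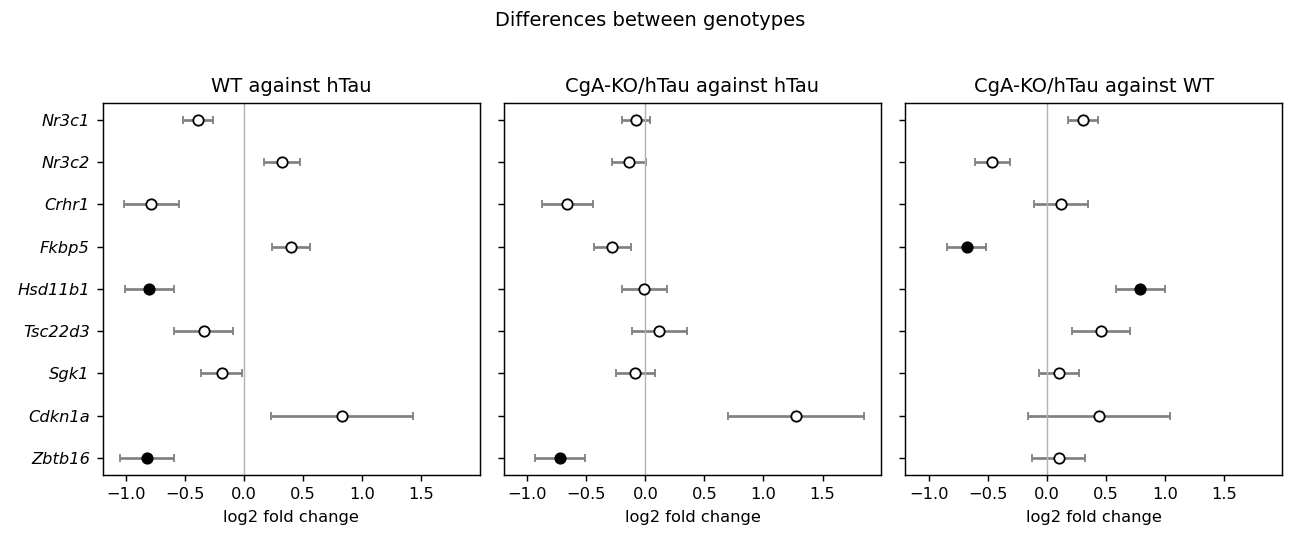
Log2 fold change (horizontal axis) of each gene in the 3 comparisons, with bars of ± 1 standard error; filled points passed an FDR of 0.05 in edgeR's test over 23062 genes and open points did not. Zbtb16 passed in both comparisons with hTau, Hsd11b1 in both comparisons with WT, and Fkbp5 between CgA-KO/hTau and WT.

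Receptors come first. Nr3c1 (ENSMUSG00000024431, chromosome 18, 39410545 to 39519421, minus strand, GRCm38) encodes the glucocorticoid receptor. Its level in WT was 166, 151, 142, 167 and 136 CPM in replicates 1 to 5. In hTau it ran from 190 to 212 CPM with a median of 199, and in CgA-KO/hTau from 132 to 231 CPM with a median of 202. All WT libraries thus lay below all hTau libraries, while CgA-KO/hTau spanned both ranges. The WT difference from hTau was -0.39 on the log2 scale (standard error 0.13) and missed an FDR of 0.05 (adjusted p = 0.0827, edgeR), which it passed only without CgA-KO/hTau replicate 1 among single libraries left out (-0.39, adjusted p = 0.0351, edgeR). CgA-KO/hTau differed by -0.08 from hTau (standard error 0.12, adjusted p = 0.716) and by 0.31 from WT (0.13, adjusted p = 0.159, edgeR). Within CgA-KO/hTau, replicates 1 to 3 held 132 to 191 CPM and replicates 4 to 6 held 213 to 231 CPM. Leaving out CgA-KO/hTau replicates 1 to 3 was chosen after the data were seen. It leaves CgA-KO/hTau only libraries without Ddx3y, beside WT and hTau libraries with and without it. Genotype and sex are thus partly confounded in every CgA-KO/hTau value of this kind, here and below, and the part of sex was not tested. Without those libraries, WT against hTau gave -0.40 (adjusted p = 0.00193) and CgA-KO/hTau against WT 0.54 (adjusted p = 0.00142), both past the threshold (edgeR). Since the libraries left out were the lower ones of CgA-KO/hTau, the rise from 0.31 follows from the choice. These p-values are thus no independent support. CgA-KO/hTau against WT also passed without CgA-KO/hTau replicate 1 alone (0.40, adjusted p = 0.0447, edgeR). With the striatal list as a term, WT against hTau gave 0.21 (adjusted p = 0.152, edgeR), so that the direction turned. No WT library had a marker sum in the hTau range, and genotype and marker level cannot be told apart between WT and hTau here or in the results that follow. In bulk tissue, fewer cells of a type and less RNA per cell cannot be told apart either.

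Nr3c2 (ENSMUSG00000031618, chromosome 8, 76899442 to 77245012, plus strand) encodes the mineralocorticoid receptor. WT libraries held 58.5, 64.6, 47.3, 55.5 and 66.6 CPM. The hTau libraries ran from 40.5 to 53.2 CPM (median 47.3), and those of CgA-KO/hTau from 26.2 to 56.0 CPM (median 42.7). All WT libraries but replicate 3 were above every hTau library, an order opposite to that of Nr3c1. No comparison passed: on the log2 scale, WT differed from hTau by 0.32 (standard error 0.15, adjusted p = 0.227), with -0.14 (0.14, adjusted p = 0.554) for CgA-KO/hTau against hTau and -0.46 (0.15, adjusted p = 0.0745) for CgA-KO/hTau against WT (edgeR). The last of these passed without CgA-KO/hTau replicate 5 (-0.55, adjusted p = 0.0282, edgeR).

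Because WT lay below hTau for Nr3c1 and mostly above it for Nr3c2, their ratio within each library is given as a description, with no test, since it was formed after these values had been seen. Library scaling cannot change it. The ratio of Nr3c1 to Nr3c2 counts, without correction for length, was 2.83, 2.34, 2.99, 3.002 and 2.05 in WT replicates 1 to 5. It was 3.98 to 4.77 in hTau, so that no library of these genotypes overlapped, and 2.69 to 7.27 in CgA-KO/hTau. Means were 2.64 ± 0.428 in WT (SD, n = 5), 4.27 ± 0.309 in hTau (SD, n = 6) and 4.70 ± 1.64 in CgA-KO/hTau (SD, n = 6). The mean log2 ratio of WT minus that of hTau was -0.71, that of CgA-KO/hTau minus hTau 0.07 and that of CgA-KO/hTau minus WT 0.77, the last being 0.86 without CgA-KO/hTau replicates 1 to 3.

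**Figure D3:**
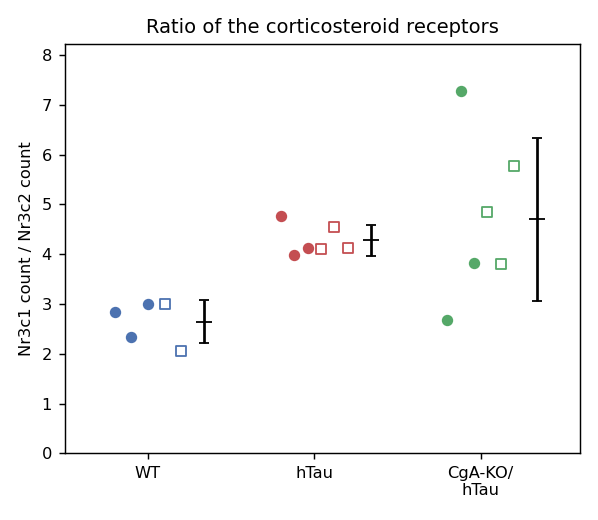
Ratio of Nr3c1 to Nr3c2 counts (vertical axis from 0, no unit) in every library by genotype; filled circles are replicates 1 to 3, open squares replicates 4 to 6, and bars give the mean ± SD. All 5 WT libraries lie at or below 3.002 and all 6 hTau libraries at or above 3.98, and CgA-KO/hTau has the widest spread.

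Crhr1 (ENSMUSG00000018634, chromosome 11, 104132855 to 104175523, plus strand) encodes the main CRH receptor of cortex and lies 55.9 kb before the mouse Tau gene Mapt. WT libraries held 17.2, 14.0, 16.2, 6.39 and 12.1 CPM. The range was 18.6 to 25.1 CPM in hTau (median 23.4) and 9.43 to 22.1 CPM in CgA-KO/hTau (median 13.6). WT lay wholly below hTau, as did 5 of the 6 CgA-KO/hTau libraries. The log2 fold changes were -0.79 (standard error 0.23, adjusted p = 0.0527) for WT and -0.66 (0.22, adjusted p = 0.0611) for CgA-KO/hTau against hTau, both past the study's Methods threshold and both short of an FDR of 0.05 (edgeR). WT replicate 4, the lowest, rested on 56 counts and was the WT library set apart above. Without it the WT difference was -0.63. With single libraries left out, the adjusted p reached 0.137 for WT and 0.130 for CgA-KO/hTau against hTau (edgeR). Without CgA-KO/hTau replicate 4, both passed (-0.78, adjusted p = 0.0332, and -0.82, adjusted p = 0.0149, edgeR). The WT difference also passed without WT replicate 1 or CgA-KO/hTau replicate 1 or 3, at -0.90 to -0.78, and that of CgA-KO/hTau without WT replicate 4 or CgA-KO/hTau replicate 5, at -0.66 and -0.74. With the striatal list as a term these were -0.12 (adjusted p = 0.845) and -0.43 (adjusted p = 0.233, edgeR).

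Fkbp5 and Hsd11b1 act on the signal inside the cell. Fkbp5 (ENSMUSG00000024222, chromosome 17, 28399094 to 28517527, minus strand) encodes a co-chaperone of Hsp90 that lowers the hormone affinity of the glucocorticoid receptor and is itself induced by glucocorticoids. WT libraries held 33.99, 46.3, 47.5, 32.8 and 45.8 CPM. In hTau it ran from 28.2 to 35.7 CPM (median 30.5) and in CgA-KO/hTau from 15.5 to 32.7 CPM (median 27.0). Every CgA-KO/hTau library was below every WT library, though the gap between the highest of one and the lowest of the other was small. Fkbp5 was lower in CgA-KO/hTau than in WT, at a log2 difference of -0.68 (standard error 0.16, adjusted p = 0.0201, edgeR). Against hTau, WT differed by 0.40 (0.16, adjusted p = 0.168) and CgA-KO/hTau by -0.28 (0.16, adjusted p = 0.251), neither past the threshold (edgeR). With CgA-KO/hTau replicates 1 to 3 left out, the difference from WT was -0.71 (adjusted p = 0.0177, edgeR). With the striatal neuron list as a term it was -0.46 (adjusted p = 0.0863, edgeR), and the part of striatal tissue in it was not tested further. The call ended without WT replicate 3 or WT replicate 5, at log2 fold changes of -0.62 and -0.64.

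Hsd11b1 (ENSMUSG00000016194, chromosome 1, 193221634 to 193264075, minus strand) encodes the enzyme that regenerates active glucocorticoid from its inert keto form. WT libraries held 6.77, 7.93, 3.03, 8.10 and 4.34 CPM. The range was 8.83 to 11.8 CPM in hTau (median 10.3) and 8.14 to 11.3 CPM in CgA-KO/hTau (median 10.7). WT was thus below both transgenic genotypes in every library, and these had nearly the same range. Hsd11b1 was lower in WT than in hTau (log2 fold change -0.80, standard error 0.21, adjusted p = 0.0265) and higher in CgA-KO/hTau than in WT (0.79, standard error 0.21, adjusted p = 0.0287), whereas CgA-KO/hTau and hTau differed by -0.01 (standard error 0.19, adjusted p = 0.979, edgeR). The CgA-KO/hTau difference from WT was 0.70 with the striatal list as a term (adjusted p = 0.0392) and 0.71 without CgA-KO/hTau replicates 1 to 3 (adjusted p = 0.153, edgeR). For WT against hTau the striatal term gave -0.61 (adjusted p = 0.212, edgeR). WT replicates 3 and 5, with 3280 and 3229 CPM of striatal markers, held the lowest Hsd11b1 of the genotype. Both calls of this gene ended without WT replicate 5, the library that held 1158 CPM of choroid plexus markers against 17.8 to 24.0 CPM in other WT libraries, at log2 fold changes of -0.70 and 0.69. The WT call against hTau also ended without hTau replicate 2, 4 or 5, at -0.79 to -0.76, and the other without CgA-KO/hTau replicate 1 or 2, at 0.77. Hsd11b1 overlaps Lamb3 on the opposite strand, and the strand setting of the counting was not given in the sources used here. The opposing enzyme gene Hsd11b2 was at most 0.203 CPM in any library.

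Among target genes, Zbtb16 (ENSMUSG00000066687, chromosome 9, 48654297 to 48836222, minus strand), a zinc finger repressor induced by glucocorticoids in many tissues, was the member that passed in both comparisons with hTau. WT libraries held 60.5, 59.7, 35.0, 53.0 and 32.6 CPM. All 6 hTau libraries were within 80.7 to 93.2 CPM (median 83.7), and CgA-KO/hTau ran from 30.4 to 79.1 CPM (median 50.1). Every WT and every CgA-KO/hTau library was below every hTau library. Zbtb16 was lower than in hTau both in WT, at a log2 difference of -0.83 (standard error 0.23, adjusted p = 0.0398), and in CgA-KO/hTau, at -0.72 (0.21, adjusted p = 0.0417, edgeR). Single libraries ended these calls. For WT this held without WT replicate 3, 4 or 5 or without any hTau library, at -0.86 to -0.71 (adjusted p = 0.0563 to 0.123, edgeR). For CgA-KO/hTau it held without any hTau library or without CgA-KO/hTau replicate 1, 2, 3 or 6, at -0.73 to -0.60 (adjusted p = 0.0588 to 0.0906, edgeR). Over the 9 members, the compared libraries did not overlap for 4 in WT against hTau, 1 in CgA-KO/hTau against hTau and 2 in CgA-KO/hTau against WT, beside 9.52%, 6.63% and 3.60% of all genes.

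Striatal markers differed between libraries of high and low Zbtb16, though not in one order over all genotypes. CgA-KO/hTau replicates 1 to 3, with 435 to 1840 CPM of these markers, held 30.4 to 47.3 CPM of Zbtb16, and replicates 4 to 6, with 200 to 227 CPM, held 52.8 to 79.1 CPM. WT replicates 3 and 5, whose marker sums were the highest of all, had the lowest Zbtb16 of the genotype. WT replicates 1, 2 and 4, with 1145 to 1191 CPM of the markers, held 53.0 to 60.5 CPM of Zbtb16, above CgA-KO/hTau replicates 2 and 6, which held 47.3 and 52.8 CPM at marker sums of 435 and 227 CPM. With the marker list as a term, the WT difference turned to 0.26 (adjusted p = 0.324) and the CgA-KO/hTau difference was -0.30 (adjusted p = 0.123, edgeR). CgA-KO/hTau against WT, at 0.10 without that term (standard error 0.23, adjusted p = 0.846), was -0.56 with it and passed (adjusted p = 0.00567, edgeR). Leaving out CgA-KO/hTau replicates 1 to 3 gave -0.36 (adjusted p = 0.319, edgeR) for CgA-KO/hTau against hTau, and no member passed in that comparison.

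**Figure D4:**
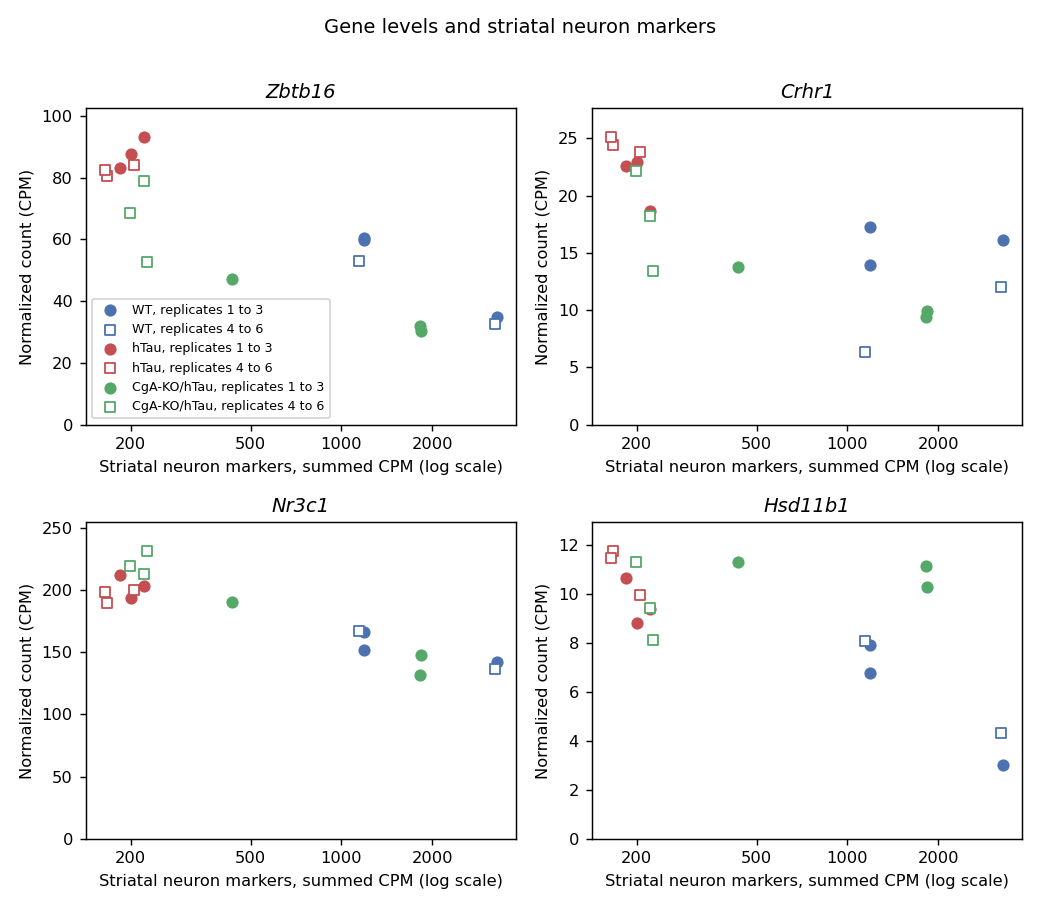
Normalized count (CPM, vertical axes from 0) of Zbtb16, Crhr1, Nr3c1 and Hsd11b1 in each library against the summed CPM of 15 striatal neuron markers (horizontal log axis); colour gives the genotype, filled circles are replicates 1 to 3 and open squares replicates 4 to 6. The hTau libraries and CgA-KO/hTau replicates 4 to 6 sit at 165 to 227 CPM of the markers, and the lowest Zbtb16 and Nr3c1 of each of WT and CgA-KO/hTau are in libraries of high marker sum. Hsd11b1 is at 10.3 to 11.3 CPM in CgA-KO/hTau replicates 1 to 3, and in WT at 3.03 and 4.34 CPM in the libraries with the highest marker sums against 6.77 to 8.10 CPM in the other 3.

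Sgk1 (ENSMUSG00000019970, chromosome 10, 21882184 to 21999903, plus strand) encodes a kinase of ion transport that both receptors induce, and Tsc22d3 (ENSMUSG00000031431, chromosome X, 140539528 to 140600659, minus strand) encodes the glucocorticoid-induced leucine zipper. Their sequences are shown because the Sgk1 window held the full recognition element of the receptor, and the Tsc22d3 window only its common 6-base unit. Windows of 250 bases before annotated transcript starts (RefSeq, GRCm38.p6) were searched on both strands for the full element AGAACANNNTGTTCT and for its 6-base unit AGAACA, which the full element contains. The full element was in 3 of 32851 windows (0.00913%) and in 1 of the 15 windows that 7 of the members had. The unit, within a full element or apart from it, was in 16.1% of all windows and in 4 of those 15, which were 3 of Sgk1 and 1 of Tsc22d3. Capitals mark the matches, TGTTCT being the unit on the other strand.
Sgk1, chr10:21993640-21993889, plus strand: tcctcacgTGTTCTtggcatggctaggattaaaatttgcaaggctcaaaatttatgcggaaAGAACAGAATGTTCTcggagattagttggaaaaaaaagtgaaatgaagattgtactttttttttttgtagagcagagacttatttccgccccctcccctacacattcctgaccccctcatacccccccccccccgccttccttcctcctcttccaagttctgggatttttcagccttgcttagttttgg
Tsc22d3, chrX:140600523-140600772, minus strand: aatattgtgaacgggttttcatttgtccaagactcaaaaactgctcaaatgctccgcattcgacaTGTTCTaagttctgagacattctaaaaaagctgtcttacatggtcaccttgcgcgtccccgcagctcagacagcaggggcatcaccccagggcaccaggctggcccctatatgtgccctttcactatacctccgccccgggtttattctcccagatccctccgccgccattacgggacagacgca
In the Sgk1 window, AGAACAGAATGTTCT lies 189 to 175 bases before the start of a shorter transcript and within an intron of longer ones. The Tsc22d3 window holds the unit alone, 185 to 180 bases before its start, and 137 of its 250 bases are exon of another transcript of the gene. A match of letters is a description of the sequence and says nothing of binding here.

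Sgk1 was at 50.7, 49.0, 57.2, 62.2 and 47.9 CPM in WT and at 55.9 to 65.3 CPM in hTau (median 61.2). In CgA-KO/hTau it was 36.2, 43.8 and 43.3 CPM in replicates 1 to 3 and 80.3, 69.5 and 71.0 CPM in replicates 4 to 6. The former were below and the latter above every WT and hTau library. Within hTau the order was the opposite, with 63.3 to 65.3 CPM in replicates 1 to 3 and 55.9 to 59.1 CPM in replicates 4 to 6. Averaged over each genotype, no difference passed: the log2 fold change was -0.09 (standard error 0.16, adjusted p = 0.774) for CgA-KO/hTau and -0.19 (0.17, adjusted p = 0.569) for WT against hTau, and 0.10 (0.17, adjusted p = 0.785) for CgA-KO/hTau against WT (edgeR). Without CgA-KO/hTau replicates 1 to 3 the last was 0.47 and passed (adjusted p = 0.0148, edgeR). Those libraries were the lower ones and were left out after the data were seen, so this p-value is no independent support. CgA-KO/hTau differed from hTau by -0.64 within replicates 1 to 3 and by 0.36 within replicates 4 to 6, a difference of -1.001 (standard error 0.16), which describes a split first seen in these same values. It was taken from an interaction term fitted to all genes. Of the 9 members, 1 passed an FDR of 0.05 for this term in CgA-KO/hTau against hTau, 2 in CgA-KO/hTau against WT and 0 in WT against hTau, beside 11.7%, 5.47% and 0.0564% of all genes (edgeR). An unadjusted p under 0.05 was found for 4, 5 and 1 members, beside 27.4%, 21.4% and 10.1% of all genes, so that 1 of 9 in CgA-KO/hTau against hTau is near the background.

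These sets of CgA-KO/hTau libraries differed in other measured ways. Oligodendrocyte markers summed to 2914 to 3312 CPM in replicates 1 to 3 and to 1781 to 1890 CPM in replicates 4 to 6. Immediate early genes summed to 736 to 1496 CPM in the former and to 3156 to 3922 CPM in the latter, above the 851 to 1777 CPM of all WT and hTau libraries. Ddx3y, Prnp, the striatal markers and these lists divide the CgA-KO/hTau libraries in the same way, and their parts in the Sgk1 split cannot be told apart. The mitochondrial share of counts was 13.8 to 18.2% in CgA-KO/hTau replicates 1 to 3 and 3.84 to 10.9% in replicates 4 to 6, against 2.56 to 4.59% in hTau and 3.53 to 7.94% in WT, and its part in the CgA-KO/hTau differences was not tested.

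**Figure D5:**
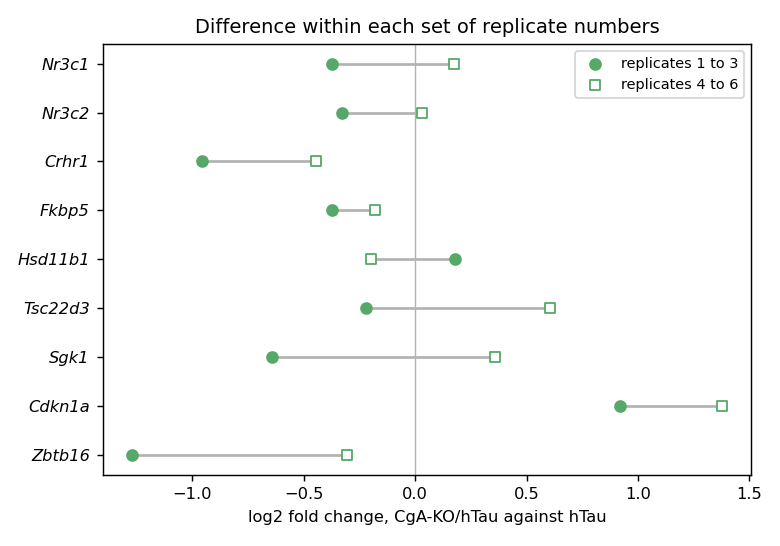
Log2 fold change of CgA-KO/hTau against hTau (horizontal axis) of each gene within replicates 1 to 3 (filled circles) and within replicates 4 to 6 (open squares), from 1 fit over all genes. Sgk1 lies at -0.64 and 0.36, and Zbtb16 at -1.27 and -0.30; of the 9 differences between the sets only that of Sgk1 passed an FDR of 0.05.

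Tsc22d3 ranged from 18.0 to 42.7 CPM in WT, from 27.3 to 66.1 CPM in hTau and from 33.4 to 54.6 CPM in CgA-KO/hTau. The hTau libraries separated by replicate number, with 45.5 to 66.1 CPM in replicates 1 to 3 and 27.3 to 29.9 CPM in replicates 4 to 6. The latter are the hTau libraries that lay closest to each other. Besides Sgk1, Fkbp5 also separated in hTau, at 31.9 to 35.7 CPM in replicates 1 to 3 and 28.2 to 29.0 CPM in replicates 4 to 6. Crhr1 did so in the other direction, at 18.6 to 23.0 CPM and 23.8 to 25.1 CPM. No comparison passed, the log2 fold changes being -0.34 for WT and 0.12 for CgA-KO/hTau against hTau and 0.46 for CgA-KO/hTau against WT (adjusted p = 0.46, 0.782 and 0.295, edgeR).

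Cdkn1a (ENSMUSG00000023067, chromosome 17, 29090976 to 29100727, plus strand) encodes the cell cycle inhibitor p21, which glucocorticoids and DNA damage both induce. It had the widest relative spread of the 9 genes within each genotype, from 2.17 to 13.6 CPM in WT, 1.70 to 8.55 CPM in hTau and 3.36 to 32.8 CPM in CgA-KO/hTau. Its lowest count was 19, in WT replicate 4. The hTau libraries separated by replicate number, with 1.70 to 2.37 CPM in replicates 1 to 3 and 4.63 to 8.55 CPM in replicates 4 to 6. The log2 fold change of 1.27 for CgA-KO/hTau against hTau had a standard error of 0.58 and did not pass (adjusted p = 0.16, edgeR). Without CgA-KO/hTau replicate 4, which held the 32.8 CPM, it was 0.41.

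The wider pathway was described with 4 lists. Of 17 genes of the CRH family and pituitary-adrenal hormones, 12 could be tested. Their median log2 fold changes were 1.001 for WT against hTau, -0.0057 for CgA-KO/hTau against hTau and -0.70 for CgA-KO/hTau against WT, beside the medians near 0 of all genes. In the same order, 3, 2 and 5 of the 12 passed an FDR of 0.05, beside 5.90%, 9.72% and 6.46% of all genes (edgeR). Crhbp, the secreted protein that binds CRH and limits its action, was lower in CgA-KO/hTau than in both other genotypes. It was at 13.8 to 20.9 CPM in CgA-KO/hTau (median 17.5), 25.3 to 40.5 CPM in WT (median 28.1) and 27.1 to 37.0 CPM in hTau (median 34.9), so that no CgA-KO/hTau library overlapped either of the others. It differed by -0.97 from hTau (log2, standard error 0.14, adjusted p = 0.000744) and by -0.78 from WT (0.14, adjusted p = 0.00491, edgeR). Without CgA-KO/hTau replicates 1 to 3 these were -0.77 (adjusted p = 0.0196) and -0.57 (adjusted p = 0.0528), and with the striatal list as a term -0.77 (adjusted p = 0.00389) and -1.07 (adjusted p = 0.000196, edgeR). GABAergic interneuron markers, whose cells make Crhbp, summed to 803 to 826 CPM in CgA-KO/hTau replicates 1 to 3 and to 1260 to 1313 CPM in replicates 4 to 6, against 1366 to 1664 CPM in WT and hTau. Their part in the Crhbp difference was not tested.

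The others of the CRH list that passed against hTau were Oxtr, Crhr2 and Mrap2, all higher in WT, and Adcyap1, lower in CgA-KO/hTau. With the striatal list as a term, WT against hTau was 1.31 in place of 2.06 for Crhr2 (adjusted p = 0.232) and 0.47 in place of 0.67 for Mrap2 (adjusted p = 0.323, edgeR), so that both calls ended. Oxtr, the oxytocin receptor, averaged 16.7 ± 5.21 CPM in the 5 WT libraries, 6.18 ± 0.678 CPM in the 6 of hTau and 7.66 ± 1.03 CPM in the 6 of CgA-KO/hTau (SD), with a log2 fold change of 1.43 for WT against hTau (adjusted p = 0.00025, edgeR). Adcyap1, which encodes the peptide PACAP, was -0.98 in CgA-KO/hTau (log2, adjusted p = 0.0171) and -0.50 (adjusted p = 0.0987, edgeR) without replicates 1 to 3 of that genotype. Crhr2, the second CRH receptor, was at most 2.96 CPM in any library. Between CgA-KO/hTau and WT, 5 of 12 were lower, Oxtr, Crhbp, Mrap2, Pomc and Crhr2. Pomc was at 16.0 CPM in 1 WT library with a WT median of 0.538 CPM, and its log2 fold change of -3.59 was -2.31 (adjusted p = 0.0832, edgeR) without WT replicate 4. Crh itself, at 3.07 to 11.3 CPM over all libraries, passed in no comparison.

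Of 23 genes of glucocorticoid synthesis, activation and transport, 13 could be tested, with medians of -0.15, -0.12 and 0.027 in the same order. Akr1c18, a steroid-reducing enzyme, was lower in WT than in hTau (log2 fold change -1.97, adjusted p = 0.0231) and higher in CgA-KO/hTau than in WT (1.76, adjusted p = 0.0404, edgeR), and with the striatal list as a term the values were 0.12 and 0.31, neither past the threshold. H6pd, which supplies the cofactor of the Hsd11b1 enzyme, was lower in CgA-KO/hTau than in hTau (-0.56, adjusted p = 0.031), at 6.50 ± 1.34 against 9.60 ± 0.936 CPM (SD, n = 6 each; edgeR), and its difference was -0.61 (adjusted p = 0.135, edgeR) without CgA-KO/hTau replicates 1 to 3. Abcb1b, a drug and steroid exporter, was higher in CgA-KO/hTau than in WT (0.50, adjusted p = 0.0236, edgeR). Of 30 receptor chaperones and coregulators, none passed in the comparisons with WT by edgeR, and the medians were 0.06, -0.08 and -0.19. An unadjusted p under 0.05 was found for 1, 6 and 4 of the 30, beside 20.9%, 27.8% and 21.7% of all genes. In CgA-KO/hTau against hTau 2 of the 30 were lower, beside 9.72% of all genes called in either direction. These were Fkbp4, the co-chaperone that opposes Fkbp5, at -0.45 (adjusted p = 0.0433) and Smarca4, a chromatin remodeller, at -0.34 (adjusted p = 0.0463, edgeR). Fkbp4 was at 75.7 to 80.4 CPM in CgA-KO/hTau replicates 1 to 3 and at 105 to 125 CPM in replicates 4 to 6, and its difference was -0.19 (adjusted p = 0.391, edgeR) without the former. Smarca4 was -0.14 (adjusted p = 0.366) without those libraries and -0.20 (adjusted p = 0.185, edgeR) with the striatal list as a term.

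Of 40 further genes that respond to glucocorticoids in brain, 39 could be tested. WT against hTau had 1 higher, CgA-KO/hTau against hTau 2 higher and 1 lower, and CgA-KO/hTau against WT 4 higher and 1 lower. Of all genes, 5.90%, 9.72% and 6.46% passed in these comparisons in either direction. An unadjusted p under 0.05 was found for 13, 11 and 14 of the 39, beside 20.9%, 27.8% and 21.7% of all genes (edgeR). List medians were -0.13, -0.029 and 0.06. Pdk4, a brake on glucose oxidation, was higher in CgA-KO/hTau than in the other genotypes without overlap, at 14.2 to 20.2 CPM against 5.93 to 9.30 CPM in WT and 8.01 to 12.1 CPM in hTau. Its log2 fold change was 0.73 against hTau (standard error 0.14, adjusted p = 0.00658) and 1.12 against WT (0.15, adjusted p = 0.000559), and without CgA-KO/hTau replicates 1 to 3 these were 0.50 (adjusted p = 0.141) and 0.91 (adjusted p = 0.00799, edgeR). Mt1, a metal-binding stress protein, was higher in CgA-KO/hTau by 0.70 against hTau and 0.73 against WT (adjusted p = 0.017 and 0.0212, edgeR). Fam107a and Glul, both abundant in astrocytes, were higher in CgA-KO/hTau than in WT, by 1.20 and 1.07 (adjusted p = 0.00637 and 0.0239, edgeR). Astrocyte markers summed to 4629 to 7002 CPM in CgA-KO/hTau replicates 1 to 3, 1536 to 3684 CPM in replicates 4 to 6 and 1312 to 3867 CPM in WT, and their part in these differences was not tested. Without CgA-KO/hTau replicates 1 to 3, neither Mt1 nor Fam107a nor Glul passed, at log2 fold changes of 0.54 to 0.66 (adjusted p = 0.0758 to 0.264, edgeR). Foxo1 was higher in WT than in hTau (1.11, adjusted p = 0.00913, and -0.04 with the striatal list as a term), Rhob was lower in CgA-KO/hTau than in hTau (-0.39, adjusted p = 0.0424) and Plin4 was lower in CgA-KO/hTau than in WT (-1.17, adjusted p = 0.0425, edgeR). The classical targets Per1, Klf9 and Dusp1 passed in no comparison.

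Glucocorticoid levels follow the day, so clock genes were read beside these lists. Of 17, 1 was lower in each comparison, beside 5.90%, 9.72% and 6.46% of all genes called in either direction. The list's median log2 fold changes were -0.26, -0.19 and 0.09. Dbp, a clock output gene, was lower in CgA-KO/hTau, at 24.7 ± 10.2 CPM, than in hTau at 54.2 ± 4.81 CPM (SD, n = 6 each; log2 fold change -1.13, adjusted p = 0.00656) and in WT (-0.92, adjusted p = 0.0234, edgeR). Rora was lower in WT than in hTau (-0.53, adjusted p = 0.0241, edgeR). Of 16 immediate early genes, whose medians were -0.12, 0.69 and 0.89, Nr4a2 was higher than in hTau in WT (1.86, adjusted p = 0.00574) and in CgA-KO/hTau (2.90, adjusted p = 0.000291), and Jun was higher in WT than in both (0.67 against hTau, adjusted p = 0.027; -0.61 for CgA-KO/hTau against WT, adjusted p = 0.0397, edgeR). The hour of tissue collection was not given in the sources used here.

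For the 3 members that passed in a comparison, the genes with the closest profiles over the 17 libraries were sought among 23061 others, as the root mean square difference of centred log2(CPM + 1). Zbtb16 was nearest to Kcns3 (0.112), Mical2 (0.162) and Chrm3 (0.170), against its own spread of 0.537. Fkbp5 was nearest to C2cd2l (0.167), Tekt5 (0.169) and Nrde2 (0.172), against a spread of 0.373. Hsd11b1 had no neighbour as close, with Baalc (0.251), Camk2n1 (0.259) and Lhx2 (0.262) against 0.440.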

How the data were processed

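The prefrontal cortex RNA of 5 WT, 6 hTau and 6 CgA-KO/hTau mice was read as 1 table of counts per gene. The authors trimmed reads with Trimmomatic 0.39, aligned them to mm10 with STAR 2.7.10b, quantified with StringTie 1.3.6 and deposited whole-number counts without normalization, made with prepDE. These counts come from coverage, about 3 per fragment, so low counts look more precise than they are. The annotation release and strand setting were not given in the sources used here, and coordinates and exon lengths are those of GENCODE M21 (GRCm38).

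Counts were analysed with edgeR 4.0.16 in R 4.3.3: TMM, filterByExpr by genotype, and 1 quasi-likelihood fit to all 17 libraries with a mean per genotype and no covariate. P-values were adjusted over 23062 genes by Benjamini-Hochberg. The study states that n in its legends counts biological replicates, while the labels give only numbered samples of a genotype. P-values measure the spread between these samples, and whether part of that spread is technical was not tested. The 9 genes and all lists were chosen with earlier results of these data known. All 9 genes are named, with up to 4 genes per list and comparison by smallest p, the 3 nearest profiles of each member called, and Pomc, Crhr2, Plin4, Crh, Hsd11b2, Per1, Klf9, Dusp1 as context, some after their values were seen.

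Alternatives were DESeq2 1.42.0, limma 3.58.1 voom, other scalings and filters, only the 2 genotypes compared, a robust fit, a replicate block, terms for Ddx3y, marker lists and 1 surrogate variable (sva 3.50.0), sets of replicates, averaged near-identical libraries and each library left out. The ratio of receptors, the interaction and leaving out CgA-KO/hTau replicates 1 to 3 were added after the data were seen. The edgeR, DESeq2 and limma steps were tested on simulated counts. Tables used Python 3.11.15, pandas 2.3.3 and scipy 1.17.1.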

Additional observations from a re-analysis of the deposited data

Results flagged for a closer look

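Cdkn1a in CgA-KO/hTau replicate 4 was at 32.8 CPM, against 3.36 to 9.38 CPM in the other 5 libraries of the genotype, and the gap to the nearest of them took 0.796 of the whole range, above Dixon's 95% critical value for 6 samples. Of 27 groups of 1 gene in 1 genotype, this was the only one with a library so far apart, where chance flags about 1 in 20. Without that library, the log2 fold change of Cdkn1a for CgA-KO/hTau against WT was -0.42, in place of 0.45. Against hTau it was 0.41, in place of 1.27.

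The difference between genotypes itself differed between replicates 1 to 3 and replicates 4 to 6 for 2 genes, by an interaction term in edgeR with Benjamini-Hochberg adjustment over all genes. The split was first seen in these same values, so the p-values are no independent support for it. For Sgk1 the difference of log2 fold changes was -1.001 for CgA-KO/hTau against hTau (adjusted p = 0.00175) and -0.77 for CgA-KO/hTau against WT (adjusted p = 0.0173), where 11.7% and 5.47% of all genes passed. For Crhr1 it was -1.44 for CgA-KO/hTau against WT (adjusted p = 0.0242, edgeR), with -0.52 in replicates 1 to 3 and 0.92 in replicates 4 to 6. The latter set holds only 2 WT libraries, of which the shallowest, WT replicate 4, had the lowest Crhr1 of all libraries. Of the 27 interaction tests of members, 10 had an unadjusted p under 0.05, beside 27.4%, 21.4% and 10.1% of all genes in CgA-KO/hTau against hTau, CgA-KO/hTau against WT and WT against hTau.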

How the results depend on the processing

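Of the 891 values of the 9 members over 3 comparisons under alternatives, 752 kept direction and side of the threshold, 51 lost a call, 38 gained one and 50 changed sign, and the causes were not tested. WT against hTau called 2 members, and 4 under DESeq2, with at least 10 counts in every library, with only the 2 genotypes compared, with the oligodendrocyte list or 1 surrogate variable as a term, and without CgA-KO/hTau replicates 1 to 3. It called 5 under voom, 1 with the replicate block, and 0 with the striatal list as a term, in replicates 1 to 3 alone and with near-identical libraries averaged. CgA-KO/hTau against hTau called 1, but 2 under DESeq2, voom and only the 2 genotypes, 3 in replicates 1 to 3 alone, and 0 with the replicate block, either list as a term, in replicates 4 to 6 alone, without CgA-KO/hTau replicates 1 to 3 and with libraries averaged. CgA-KO/hTau against WT called 2, but 0 with only the 2 genotypes and 1 with the replicate block, in either set of replicates alone and with libraries averaged. With each library left out in turn, these counts ran from 0 to 4, 0 to 2 and 0 to 3. Over all genes, 1361, 2242 and 1489 were called in the same order, 660, 654 and 614 with the replicate block, and 128 to 3967, 156 to 6713 and 266 to 5030 over the alternatives other than single libraries left out. Only 2 of 16 pairs of same-numbered libraries correlated over 0.1 (-0.0911 to 0.414) and 5 of 17 libraries correlated best with their own number. No pairing is given by the labels, and none was used in the main fit. Correlations over all genes cannot exclude that the numbers pair some samples.

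Changes of sign were as follows, as log2 fold changes. With the striatal list as a term, WT against hTau gave Nr3c1 0.21, Fkbp5 -0.0046, Sgk1 0.54, Zbtb16 0.26, Akr1c18 0.12 and Foxo1 -0.036. CgA-KO/hTau against hTau then gave Nr3c1 0.16, Hsd11b1 0.091 and Sgk1 0.18, and against WT Nr3c1 -0.049, Crhr1 -0.30, Sgk1 -0.35, Cdkn1a -0.74 and Zbtb16 -0.56, the last past the threshold in the opposite direction (adjusted p = 0.00567, edgeR). The oligodendrocyte list gave Nr3c1 0.11, Hsd11b1 0.20 and Sgk1 0.11 in CgA-KO/hTau against hTau. In that comparison replicates 4 to 6 alone gave Nr3c1 0.16, Nr3c2 0.014 and Sgk1 0.34, replicates 1 to 3 alone gave Hsd11b1 0.19, Tsc22d3 -0.21 and a receptor ratio of -0.022, and leaving out CgA-KO/hTau replicates 1 to 3 gave Nr3c1 0.14 and Sgk1 0.27. Hsd11b1, at -0.01 there, was 0.010 under DESeq2, 0.017 with its size factors, 0.052 with at least 10 counts, 0.0033 with only the 2 genotypes and 0.034 with libraries averaged, where Tsc22d3 was -0.14. In CgA-KO/hTau against WT, replicates 1 to 3 alone gave Crhr1 -0.51, Sgk1 -0.34, Cdkn1a -1.04 and Zbtb16 -0.49, voom gave Crhr1 -0.11, Sgk1 -0.021 and Cdkn1a -0.44, and Cdkn1a was -0.25 with the replicate block and -0.16 with Ddx3y as a term.

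With single libraries left out, CgA-KO/hTau against hTau ran from -0.14 to 0.0092 for Nr3c1, -0.052 to 0.047 for Hsd11b1, -0.20 to 0.019 for Sgk1 and -0.075 to 0.21 for the receptor ratio. CgA-KO/hTau against WT ran from -0.037 to 0.23 for Crhr1, -0.011 to 0.21 for Sgk1, -0.42 to 0.79 for Cdkn1a and -0.059 to 0.22 for Zbtb16. The calls of Crhbp and Oxtr, of Pdk4 in both comparisons and of Fam107a held without any 1 library, whereas those of Mrap2, Fkbp4, Smarca4, H6pd, Abcb1b, Akr1c18, Rhob, Plin4, Pomc and, against WT, Crhr2, Mt1 and Glul ended without at least 1 library. The median over genes in CgA-KO/hTau against hTau was 0.13 under DESeq2, which kept every gene with at least 1 count. It was 0.03 over the 23062 genes tested by edgeR, so these medians are over different genes. With DESeq2 size factors in edgeR it was 0.054.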
